A study of Mus musculus with 2 samples.

Results

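The 6 chitinase and chitinase-like genes Chil1, Chil3, Chil4, Chia1, Chit1 and Ctbs were followed in sorted mouse lung epithelial cells after 3 months of smoke or air. They were taken by gene symbol from the platform annotation, and each was read by 1 probe, so the set held 6 of the 19505 genes named on the array. Chil1 was 4.99-fold higher in smoke, Chil3 was 2.64-fold lower, and the other 4 genes were within 2-fold. These genes were picked for description with the smoke and air values already known, so the values below are a description and carry no test.

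Both samples were lung cells sorted for an SPC/GFP reporter and for EpCAM. Surfactant protein C (SPC) is made by the alveolar type 2 cell, which secretes surfactant and renews the alveolar lining, and EpCAM marks the surface of epithelial cells. The control group breathed air for 3 months and the other group was exposed to smoke for 3 months; the reporter and the sort were common to both. Each group was 1 Clariom S Mouse array, so no value has an SD or a p-value, each difference compares 2 samples, and the number of arrays limits the precision. The strain, sex and age of the mice, the number of mice behind an array and the make of the reporter were not given in the sources used here.

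Chitinases of glycoside hydrolase family 18 cut chitin, the polymer of N-acetylglucosamine found in fungal walls, mites, insects and worms but not made by mammals. Mammals carry active chitinases and also chitinase-like proteins, which keep the fold and bind sugar chains but have lost the acidic residue needed to cut them. In mouse lung these proteins are known from type 2 immunity, from activated macrophages and from secretions of the epithelium, and the human counterpart of Chil1, the protein YKL-40, is a widely measured serum marker of lung inflammation.

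All 6 genes had an entry in the RefSeq promoter table (build GRCm38.p6), which holds 250 bases before and 50 bases after each annotated start. The 250 bases before the start are printed, 5′ to 3′ on the strand of the gene, for the 2 genes past 2-fold and for Chil4, the neighbouring copy of Chil3. Capitals mark matches of TATAAAA, the TATA box, and of TTCNNNGAA, the letters bound by STAT factors.
Chil1, chr1:134181906-134182155, plus strand: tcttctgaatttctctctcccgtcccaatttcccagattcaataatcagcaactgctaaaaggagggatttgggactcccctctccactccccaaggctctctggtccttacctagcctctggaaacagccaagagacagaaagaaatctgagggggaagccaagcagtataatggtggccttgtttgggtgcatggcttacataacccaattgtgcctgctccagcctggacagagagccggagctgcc
Chil3, chr3:106167565-106167814, minus strand: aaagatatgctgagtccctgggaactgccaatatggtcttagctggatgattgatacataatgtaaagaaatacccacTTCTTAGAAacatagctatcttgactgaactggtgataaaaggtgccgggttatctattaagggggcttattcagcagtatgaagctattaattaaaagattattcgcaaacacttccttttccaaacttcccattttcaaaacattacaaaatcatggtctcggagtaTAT
Chil4, chr3:106219480-106219729, minus strand: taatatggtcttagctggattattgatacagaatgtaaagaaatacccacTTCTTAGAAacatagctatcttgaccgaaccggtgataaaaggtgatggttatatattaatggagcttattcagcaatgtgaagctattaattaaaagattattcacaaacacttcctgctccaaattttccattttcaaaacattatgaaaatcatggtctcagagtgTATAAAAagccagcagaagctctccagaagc

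The Chil3 and Chil4 stretches shared 201 of 221 aligned bases, 91.0%. Both held the same STAT match, TTCTTAGAA, at -172 to -164 from the start in Chil3 and at -200 to -192 in Chil4. Their TATA matches lay at -31 to -25 in Chil4 and at -3 to 4 in Chil3, where the annotated start falls inside the match and 3 of its letters are in the printed part. Matches were looked for on both strands of the full 300 bases. Of 27025 promoters of this length, 5.78% held TATAAAA and 8.47% held TTCNNNGAA. Among the 6 genes, TATAAAA was also in Chia1, at -43 to -37, and TTCNNNGAA was in Chil3 and Chil4 alone. The other 3 motifs searched were the form favoured by STAT6, with 4 bases between TTC and GAA, an NF-kB form, with 2 bases between GGG and TTTCC, and the AP-1 site TGANTCA. The STAT6 form was in 6.99% of promoters and in 0 of the 6 genes, and the NF-kB form in 1.62% and 0 of 6. TGANTCA was in 7.93% of promoters and, among the 6, in Chit1 alone. The STAT and STAT6 forms can overlap in part, but none of the 6 genes held both. Chil1 and Ctbs held none of the 5, which says only that these letters are not in these windows. A match is a string of letters and not a shown binding site.

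The authors deposited 1 signal per probe and array, read here as log2. The highest value, 19.93 on both arrays, is log2 of 1000000 and was taken as the upper limit of the scale. A gene was counted past 2-fold when the smoke signal minus the air signal came to 1 or more, or to -1 or less, on the log2 scale and the brighter array reached 4.57, the median of all probe values. Of 10419 genes above this level filter and not at the limit on both arrays, 3.94% were at least 2-fold higher in smoke, 2.48% at least 2-fold lower and 6.41% either. Their median difference was 0.06 with a robust SD, a scaled median absolute deviation, of 0.47. Counts past 2-fold in the gene lists below are to be read beside these shares of all genes. Among the 6 genes, 5 passed the level filter, 1 of them higher and 1 lower past 2-fold; the genes were picked on this contrast, so nothing is read from that share. The median difference of the 6 was -0.385, with 1 gene higher and 5 lower. Over the 10419 genes, 5661 were higher and 4660 lower. The 5 lower include Chit1, under the filter, and Chia1, at -0.05, and nothing is read from this count either.

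**Figure D1:**
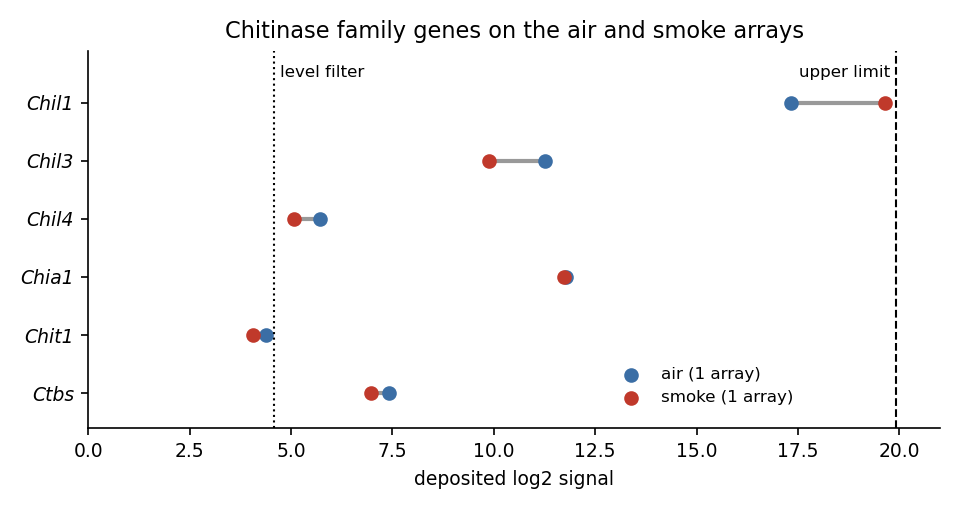
Deposited log2 signal of the 6 genes (x axis) on the air array (blue) and the smoke array (red), 1 array each, with the level filter (dotted) and the upper limit of the scale (dashed). Chil1 moves from 17.34 to 19.66, next to the limit, Chil3 moves down from 11.27 to 9.87, and Chit1 lies under the filter on both arrays.

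Of the chitinase-like proteins, Chil1 (also BRP-39) is a secreted glycoprotein of epithelium, macrophages and neutrophils. Its log2 signal was 17.34 in air, stood at 19.66 in smoke and so differed by 2.32. The smoke signal was 82.9% of the upper limit on the linear scale and the air signal was 16.6%. From its air level the scale left room for a 6.02-fold increase at most. Chil1 ranked 19th by difference among the 10419 genes.

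Set against the 200 genes nearest in mean level, Chil1 had a larger difference than 199. Those 200 had a median difference of 0.01 and a robust SD of 0.28. Few genes are this bright, so they span means of 15.39 to 19.91. The brighter of them had no room below the limit for a difference as large as that of Chil1. Their place below it was therefore set by the scale, and the limit can also narrow this robust SD. The 1 gene with a larger difference was Pigr, the epithelial transporter of polymeric immunoglobulin, at 14.04 in air and 17.22 in smoke. Against the 200 genes nearest in air level alone, 0 had a larger difference, and the same limit bears on the brighter of those. Among the 61 measurable genes at or above the air level of Chil1, itself included, it was the 1 gene at least 2-fold higher and 0 were at least 2-fold lower. Of those 61, 49 had room below the limit for a 2-fold increase and 10 had room for one as large as that of Chil1.

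No gene sat close to Chil1 in its 2 levels. By Euclidean distance on the log2 scale over the 2 arrays, the nearest were Cyb5r3, a cytochrome b5 reductase, at 1.14, the secreted chaperone gene Clu at 1.23 and the membrane protein gene Tmem176b at 1.23. Their own differences were 0.71, 0.74 and 0.59.

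**Figure D2:**
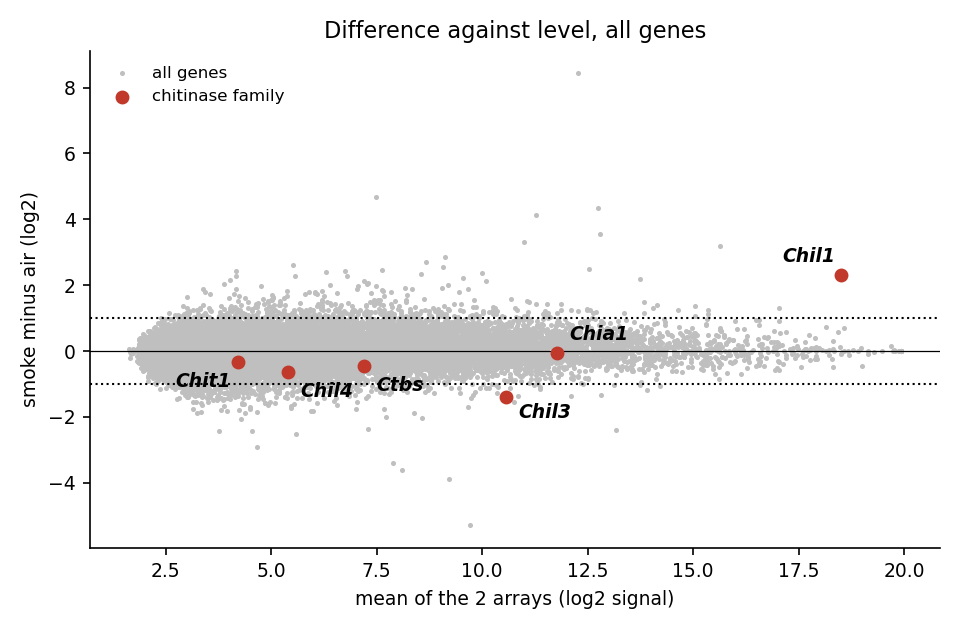
Log2 difference, smoke minus air (y axis), against the mean log2 signal of the 2 arrays (x axis) for all genes (grey) and the 6 genes (red); dotted lines mark 2-fold. Chil1, at a difference of 2.32, lies apart at the bright end. Chil3, at -1.40, lies among the lower points, 62nd from the lowest of the 10419 genes above the level filter.

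Chil3 (Ym1) and Chil4 (Ym2) are rodent chitinase-like proteins with near-identical sequences. Chil3 is a major product of alveolar macrophages and of macrophages stimulated by interleukin 4 or interleukin 13, and Chil4 is known from airway epithelium in allergic inflammation. The air signal of Chil3 was 11.27 and its smoke signal 9.87, which differ by -1.40. In a bulk sample, fewer cells of a type and less RNA per cell cannot be told apart. All 200 genes of like level had higher differences; their range was -1.12 to 1.58, with a median of 0.08 and a robust SD of 0.39. The 1 of these 200 that was at least 2-fold lower was the olfactory receptor gene Olfr171, at 11.22 and 10.10. It was also the gene nearest to Chil3 in its 2 levels (distance 0.24), ahead of Wdr91, an endosomal gene, at 0.28 and the tetraspanin gene Tspan13 at 0.33. Their differences were -1.12, -1.55 and -1.26, so Wdr91 lay lower than Chil3. By difference, Chil3 ranked 62nd from the lowest among the 10419 genes.

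The air signal of Chil4 was 5.72 and its smoke signal 5.07, which differ by -0.65; the smoke array was 1.57-fold lower, within 2-fold. Of its 200 genes of like level 180 had higher differences; the 200 had a median of -0.04 and a robust SD of 0.54. When 16 was added to every linear signal, an offset that damps low values, its difference was -0.47. The 2 genes share enough sequence that a probe of 1 may catch RNA of the other, and how the probes separate them was not tested. Both probes read lower in smoke, that of Chil4 within 2-fold. Since they may share signal, the Chil4 value is not separate support for that of Chil3, and the size assigned to each is uncertain.

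Among the active chitinases, Chia1 (acidic mammalian chitinase) is secreted by lung epithelium and by the stomach and degrades inhaled or eaten chitin. Its signals of 11.79 in air and 11.74 in smoke differed by -0.05, which became 0.03 with each array centred on its median. Of its 200 genes of like level, 65 had lower differences and 135 higher, around a median of 0.17 and a robust SD of 0.40. Chit1 (chitotriosidase), an enzyme of activated macrophages, was at 4.37 and 4.05, under the level filter on both arrays, so its difference of -0.32 was not counted. Ctbs (di-N-acetylchitobiase), a lysosomal enzyme that splits the chitobiose core of asparagine-linked glycans, was at 7.42 and 6.97. Its difference was -0.45 and 176 of its 200 genes of like level had higher ones, around a median of 0.10 and a robust SD of 0.49. Chia1 and Chit1 lay within 1 robust SD of the median of their genes of like level; Chil4 and Ctbs lay lower than that, and within 2-fold.

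**Figure D3:**
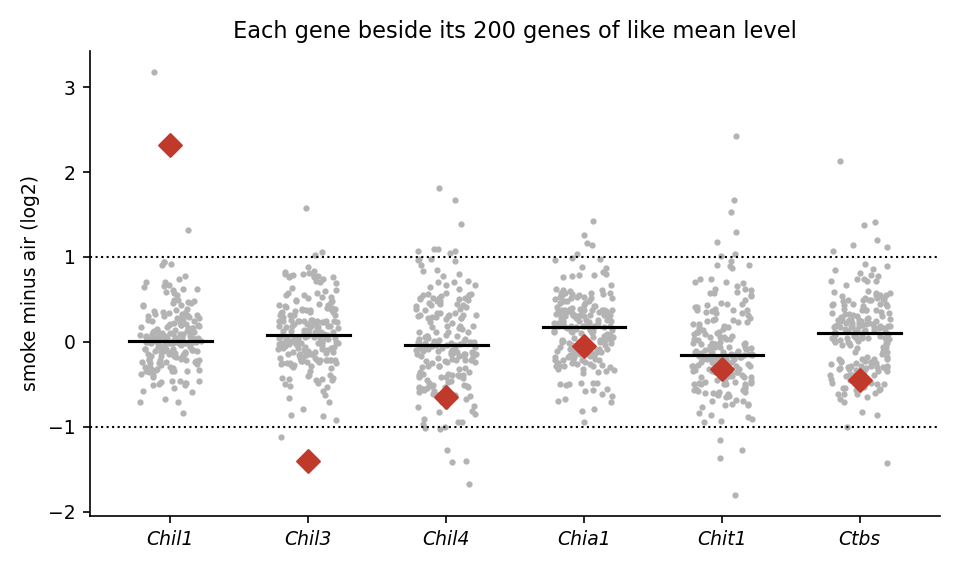
Log2 difference, smoke minus air (y axis), of each of the 6 genes (red diamond) beside the 200 genes nearest to it in mean level (grey points, spread sideways for display; black line, their median); dotted lines mark 2-fold. The Chil3 diamond lies below all of its points, the Chil1 diamond above 199 of 200, and the other 4 lie inside their clouds.

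The remaining family 18 genes on the array were within 2-fold. Chid1, a lysosomal and secreted chitinase-domain protein, was at 6.05 in air and 5.81 in smoke. Ovgp1, oviductin, was at 5.04 and 5.50. Chil6 was under the level filter at 3.82 and 2.88, and its difference of -0.94 was -0.37 with the offset. Chil5 was not analysed here. The 3 measured genes had a median difference of -0.24.

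The family lies in clusters, as the order of protein-coding genes in the RefSeq gene table shows. Chit1 is followed directly by Chil1 on chromosome 1, and on chromosome 3 the order is Ovgp1, Pifo, Chil5, Chia1, Chil3, Chil4 and Chil6. The adjacent pair on chromosome 1 had differences of -0.32 and 2.32, the former under the filter. On chromosome 3 the run from Chia1 to Chil6 had differences of -0.05, -1.40, -0.65 and -0.94. Counting 3 genes on each side of every member, 18 further genes were neighbours, and 11 were above the filter. Their median difference was 0.28 and their range -1.70 to 0.66. Of these 11, 0 were at least 2-fold higher and 1 was at least 2-fold lower, the matrix proteoglycan gene Prelp, at 10.52 in air and 8.82 in smoke. Mybph, the next gene after Chil1, was at 5.96 and 6.28.

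**Figure D4:**
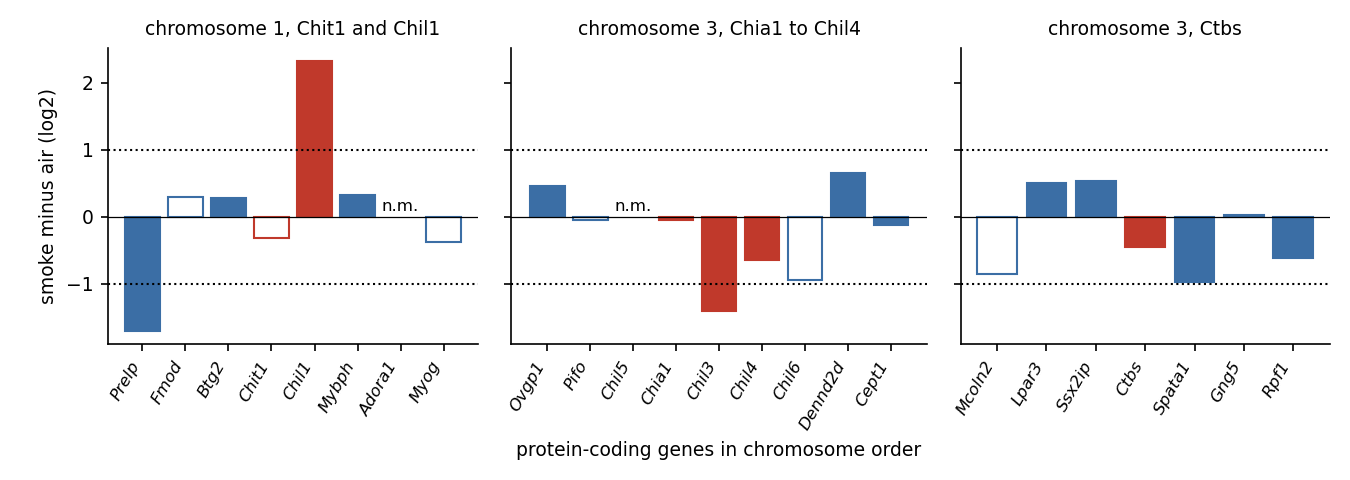
Log2 difference, smoke minus air (y axis), of the 6 genes (red) and their neighbours (blue) in the order of protein-coding genes along the chromosome, spaced evenly (x axis); open bars are genes under the level filter on both arrays, n.m. marks genes not analysed here, and dotted lines mark 2-fold. The bar of Chil1 at 2.32 stands beside small bars of Chit1 at -0.32 and Mybph at 0.32.

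Type 2 cytokines, interleukin 4 and interleukin 13 acting through the factor STAT6, are known inducers of Chil3, Chil4 and Chia1. Of 14 measured genes of that pathway, 8 were above the filter and 0 of 8 were past 2-fold, with a median difference over the 14 of -0.035. The largest difference above the filter was that of the kinase Tyk2, at 0.31. Stat6 had signals of 11.53 in air and 11.79 in smoke, and the shared receptor chain Il4ra was at 10.75 and 10.56. The cytokine genes Il4 and Il13 were under the filter on both arrays, at 2.12 and 1.94 and at 3.91 and 4.07, while Il33, an alarmin of epithelium, was at 14.28 and 14.39.

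Genes of alternative macrophage activation, the state in which Chil3 is best known, had a median difference of -0.13 over 11 measured genes. Of 5 above the filter, 2 were at least 2-fold lower and 3 were within 2-fold, where the share of all genes at least 2-fold lower was 2.48%. Retnla, a secreted resistin-like protein, was at 12.36 in air and 7.07 in smoke. Arg1, arginase 1, was at 4.61 and 3.14, so it reached the filter narrowly and on the air array alone. Its difference of -1.47 was -0.70 with the offset, within 2-fold. Mrc1, the mannose receptor, was at 8.82 and 8.59.

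Proteins that bind chitin or are reported to bind chitinase-like proteins had a median difference of 0.255 over 8 measured genes. Of 5 above the filter, 1 was at least 2-fold higher, Tlr2, a pattern receptor, at 6.72 in air and 7.85 in smoke. Tmem219, a receptor partner of Chil1 with Il13ra2, was at 6.43 and 6.88. Il13ra2, the decoy receptor of interleukin 13, was under the filter at 3.66 and 4.38. Cd44 was at 15.34 and 15.65.

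Lysosomal glycoprotein breakdown, the pathway of Ctbs, had a median difference of 0.61 over 9 measured genes. Of 8 above the filter, 6 were higher and 2 lower, 1 was at least 2-fold higher and 7 were within 2-fold. Among the 6, Engase, at 4.02 in air and 4.66 in smoke, reached the filter on the smoke array alone. Ctsa, the protective protein cathepsin A, was 2.99-fold higher, from 9.89 in air to 11.47 in smoke. Hexa, a hexosaminidase subunit, was at 9.63 and 10.41. Aga, which acts next to Ctbs on the asparagine-linked core, was at 7.12 and 6.74, and Neu1, a sialidase, was at 5.20 and 4.92. Ctbs, at -0.45, lay on the lower side with Aga and Neu1. Under quantile normalization the median of the list was 0.515, and it was 0.357 with the offset.

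**Figure D5:**
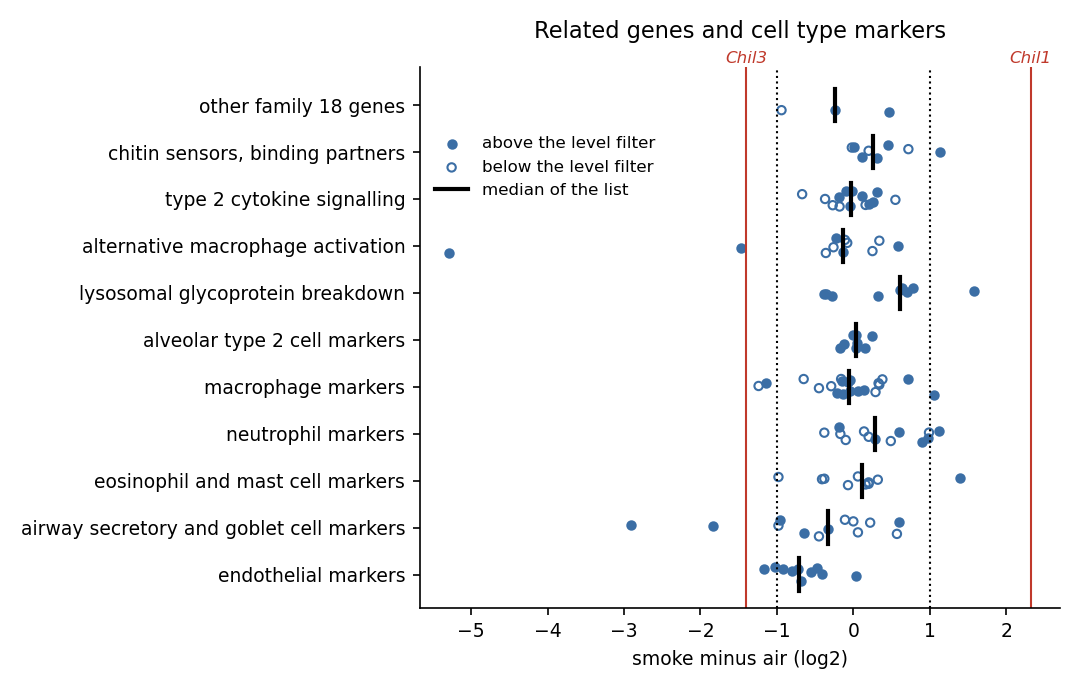
Log2 difference, smoke minus air (x axis), of related genes and cell type markers by list (y axis); filled points are above the level filter, open points below it, black bars are list medians, dotted lines mark 2-fold and red lines mark Chil3 at -1.40 and Chil1 at 2.32. The alveolar type 2 markers below the limit have a median of 0.04, and no point of any list reaches the line of Chil1.

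Markers of the sorted cells and of other cells were read beside these results. Sftpc, the surfactant protein C gene, stood at the upper limit of the scale in both samples, as did 7 others of 16 alveolar type 2 markers, so no difference can be read for these 8. Etv5, at 19.91 on both arrays, and Napsa, at 19.61 and 19.76, lay too near the limit to show a 2-fold increase. The 6 with room for one had a median difference of 0.04 and 0 of 6 were past 2-fold; Epcam had signals of 11.09 and 10.92. Chil1 stood at 2.32 beside these 6, whose differences ran from -0.17 for Epcam to 0.25 for Nkx2-1. Of them, Sftpd, Abca3, Lpcat1 and Cdh1, at 18.30, 18.76, 17.75 and 18.75 in air, had no room below the limit for an increase as large as that of Chil1.

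Of 20 measured macrophage markers, 11 were above the filter, among them Plet1 at 9.79 in air and 9.85 in smoke, the receptor subunit gene Fcer1g at 7.79 and 7.93, and Ptprc, the CD45 gene of leukocytes, at 7.64 and 7.59. Among those below it, Marco was at 3.92 in air and 4.30 in smoke, the surface receptor gene Adgre1 at 4.43 and 4.27, and Siglecf at 3.67 and 2.43. Of the 11, Cd14, a lipopolysaccharide receptor, was 2.08-fold higher, the protease gene Ctss was 2.20-fold lower and 9 were within 2-fold. The list's median difference was -0.06, with 12 of 20 lower and 8 higher. A difference below that of Chil3 was seen in 0 of these 20 and in 2 of the 11 genes of alternative macrophage activation. It was also seen in 2 of the 13 airway secretory and goblet cell markers, and in no gene of the other lists. The summed linear signal of the macrophage list was 2734 in air and 3283 in smoke, and without Cd14 it was 2146 and 2057. Of the 19 genes then left, Plet1 was the brightest on both arrays and weighs most in that sum. Which cells gave the Plet1 signal was not tested, so the sum does not show whether macrophage RNA changed. The part of macrophage RNA in the Chil3 difference was not tested.

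Neutrophils also carry Chil1 and Chil3. Their 13 measured markers had a median difference of 0.28, with 9 higher and 4 lower, and a summed linear signal of 609 in air and 855 in smoke. The median was 0.75 over the 6 above the filter and 0.194 over the 13 with the offset. Of those 6, 5 were higher and 1 lower. Il1r2 and Retnlg reached the filter on the smoke array alone, which favours higher genes, so nothing is read from this count or from the median of the 6. Il1r2, at 4.49 and 5.61, was past 2-fold, and its difference was 0.75 with the offset. The chemokine receptor gene Cxcr2 was at 5.18 and 6.16, the growth factor receptor gene Csf3r at 8.12 and 8.72, and Retnlg, a resistin-like protein, at 4.25 and 5.15. S100a8 and S100a9, abundant granulocyte genes, had differences of 0.28 and -0.19. The granule genes Ngp, Camp, Ltf, Elane and Mpo were under the filter on both arrays. The part of neutrophil RNA in the Chil1 difference was not tested.

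Airway secretory and goblet cell markers, cells that also make Chia1 and Chil4, had a median difference of -0.33 over 13 measurable genes. Of the 13, 4 were higher and 8 lower. The median was -0.8 over the 6 above the filter and -0.149 over the 13 with the offset. Of those 6, 1 was higher, Scgb3a2, with a difference of 0.6. The other 5 were lower, 2 of them at least 2-fold so. Clca1, a goblet cell secreted protein, was at 6.13 in air and under the filter in smoke, at 3.22, and its difference of -2.91 was -1.76 with the offset. The secretoglobin Scgb3a1 was at 6.85 and 5.02. The club cell gene Scgb1a1 stood at the limit on both arrays, and Cyp2f2, a club cell cytochrome, was at 16.13 and 15.80. The part of airway cell RNA in the Chil3 and Chil4 values was not tested.

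Eosinophil and mast cell markers had a median difference of 0.11 over 10 genes. The 1 above the filter, the mast cell carboxypeptidase gene Cpa3, was 2.62-fold higher, from 3.59 to 4.98. Cpa3 reached the filter on the smoke array alone, and its difference of 1.39 was 0.76 with the offset, within 2-fold. The sort did not select for endothelial cells, and which cells gave the signal of their markers was not tested. Endothelial markers had a median difference of -0.705 over 10 genes. Of these 10, 9 were lower and 2 at least 2-fold so, Cldn5 at 8.71 and 7.54 and Eng at 13.63 and 12.60. Their part in the Chil3 difference was not tested.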

How the data were processed

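The authors deposited 1 value per probe and array, used here as log2 signal. No label names the scale, which was inferred from the range of the values; centring stays unknown, and the sample labels fix the direction. Per the submitters' processing notes the software was Transcriptome Analysis Console; its version and settings, any normalization and the genome build were not given in the sources used here. Platform annotation gave 1 gene symbol for 19572 of 22206 probes, several for 0 and none for 2634. Probes of a gene were averaged on the log2 scale (55 genes had more than 1). The array medians were 4.61 in air and 4.53 in smoke, and the arrays correlated with r = 0.989 across probes, which are not replicates.

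Each gene was set against the 200 genes nearest in mean level, leaving out 16 genes at the limit on both arrays. Folds were back-calculated from log2 differences and hold on the deposited scale only. The procedure was tested on simulated data with the same noise at every level and no upper limit. That test therefore does not cover the limit near Chil1 or a spread that varies with level. Alternatives comprised quantile normalization, centring by level and by array, an offset of 16, the brightest probe, thresholds of 1.5-fold and 3-fold, other level filters and other sets of genes of like level. Promoters came from RefSeq tables; Python 3.11.15, numpy 2.4.6, pandas 2.3.3 and Biopython 1.88 were used. Named genes are the 6 members, the other family 18 genes, up to 2 genes per direction past 2-fold in each list (or the largest above the filter), the 3 genes nearest in level to each member past 2-fold, and neighbours on the chromosome; other list genes named were picked with their values in view. The members and lists were chosen with earlier results of these data known.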

Additional observations from a re-analysis of the deposited data

How the results depend on the processing

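No paired analysis was possible because each group has 1 array. The log2 differences of the 6 genes moved by less than the robust SD of genes of like level under the 4 alternatives that could change them (each gene has 1 probe, so taking the brightest probe changes nothing); Chil1 ran from 2.30 to 2.40 and Chil3 from -1.51 to -1.32. For counts past 2-fold, 9 alternatives could change a value. The count higher was 1 under all 9. The count lower was 2 at 1.5-fold (Chil3 and Chil4) and 0 at 3-fold, and 1 under the other 7. The percentile of Chil1 among genes of like level, 99.5, was 100.0 with 100 genes of like mean level and with genes of like air level. Pigr, the 1 gene above Chil1 among the 200, is not in those 2 sets. The percentile of Chit1, 33.0, was 26.5 with genes of like smoke level, and the cause of that shift was not tested. Under the other 33 comparisons of percentiles the value stayed within the 95% exact binomial interval of the share among 200 genes. The median of the eosinophil and mast cell list, 0.11, was 1.39 over its 1 gene above the filter. Leaving Cd14 out of the macrophage sum, and type 2 markers near the limit out of their median, was chosen after seeing the data. With 1 array a group, none of this covers the spread between animals or hybridizations, and the upper limit bounds what Chil1 can show.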
